A study of Mus musculus with 16 samples.

Results

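Axon guidance ligands and receptors were measured by 122 of the 41174 non-control probes of a whole mouse genome oligonucleotide array, for 67 of its 27962 gene names. The members were chosen by gene name alone: the semaphorins with the plexins and neuropilins, the ephrins with the Eph receptors, the Slits with the Robo receptors, and the netrins with the Unc5 receptors and Dcc. No measured value entered the choice. The samples were lumbar spinal cord of male SOD1G93A mice and of non-transgenic wild-type mice, each at 40 and at 80 days of age, with 4 arrays per group and 16 in all. SOD1G93A mice carry a mutated human SOD1 transgene, which is active in most tissues, next to their own *Sod1* gene, and both ages were chosen by the study as pre-symptomatic. All mice had the mixed B6SJL background. The arrays of a group are labeled as biological replicates, but the labels do not say whether an array held 1 mouse or several, so the p-values measure the spread between arrays. Each array compared cord RNA in Cy3 with a common reference in Cy5, a pool of neonatal organs from both genotypes. The question put to each comparison was which guidance genes differed with genotype before symptoms, and which differed with age.

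Axon guidance molecules steer growing axons and migrating cells. Ligands are secreted (netrins, Slits and class 3 semaphorins) or bound to the membrane (ephrins and most other semaphorins), and receptors on the growth cone turn them into attraction or repulsion by reshaping actin and microtubules. In the adult spinal cord many of these genes are still expressed by neurons, glia and vessels, where they are known for roles in synapse maintenance, myelination and vessel growth, and in limiting regrowth after injury.

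The arrays read a gene through probes of 60 bases, and 37 of the 67 genes had more than 1 probe. The first 30 bases of the probes that carried the clearest changes are given here so that the measured stretch of each transcript is plain. The pair for *Plxna1* is shown because its probes changed in opposite directions. That for *Epha4* is shown because its probes were called in different comparisons. All letters are in lower case because no part is singled out.

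*Plxna1*, probe A_52_P480141, chr6:89391627-89391686, minus strand: agaaagatatttttaaggtgaagcccatga

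*Plxna1*, probe A_51_P501922, chr6:89394290-89394350, minus strand: ctcgccttcctctccctgccatgcaggcca

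*Efnb3*, probe A_52_P495565, chr11:69635983-69636042, minus strand: actggtctagctgatggcagttattagcac

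*Sema4f*, probe A_52_P243391, chr6:82937828-82937887, minus strand: atggctttcatcagattctcaaggccttaa

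*Unc5b*, probe A_51_P294535, chr10:60282808-60282867, minus strand: ttagggaacgcaaatgatttattatccaga

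*Sema5a*, probe A_52_P409076, chr15:32808219-32808278, plus strand: aatgaagtcataaaatggtcctgcattttg

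*Epha4*, probe A_52_P288177, chr1:77593690-77593749, minus strand: ccaataaatatttattgcattctgacaggg

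*Epha4*, probe A_51_P221762, chr1:77594749-77594808, minus strand: tgcctccgatacacaatgctaaagtgacat

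The coordinates are those of the scanner files, on mouse build mm7. The probes of *Plxna1* start 2663 bases apart and those of *Epha4* 1059 bases apart. Whether a probe lies in coding sequence or in an untranslated region was not determined here.

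A Cy3 signal well above background was found on all 16 arrays for 61 of the 122 probes, on some arrays for 37 and on no array for 24. In terms of genes, 49 of 67 had at least 1 probe detected on every array, and 5 had no probe detected on any array. These 5 were the semaphorin *Sema3d*, the ephrin receptor *Epha8*, the netrin *Ntn4*, and the netrin receptors *Unc5d* and *Dcc*, the last being the classical receptor for attraction to netrin-1. All 10 plexin and neuropilin genes and all 3 Slits were detected on every array. The same held for 15 of 20 semaphorins, 9 of 14 Eph receptors, 6 of 8 ephrins, 3 of 4 Robo receptors and 3 of 5 netrin receptors, but for 0 of 3 netrins. *Ntn1*, which encodes netrin-1, did not pass the filter for testing in any comparison, and neither did *Dcc*.

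Over the whole array, 46.1% to 55.3% of the probes were well above background in Cy3, and no member probe was saturated. Each slide held 1 array of every group, in the same position for a group on every slide, so group cannot be told apart from slide position. On 3 arrays (wild-type at 40 days, replicate 3; SOD1G93A at 40 days, replicate 4; SOD1G93A at 80 days, replicate 4) a few spots had local backgrounds far above their signal, and these backgrounds were reset before the ratios were computed. Markers of cord cells were present: neuron markers averaged a log2 ratio of 5.58 to 5.69 per group, oligodendrocyte markers 5.70 to 6.14, astrocyte markers 2.96 to 3.14 and motor neuron markers 1.17 to 1.28. In whole cord, fewer cells of a type and less RNA per cell cannot be told apart.

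Levels are given throughout as the log2 ratio of cord to reference, so 0 means an equal signal in both dyes after normalization. Dyes were never exchanged, so dye and sample cannot be told apart and these levels are a description. Of the 54 member genes with a probe detected on at least 12 arrays, 32 (59.3%) stood above 0, beside 55.8% of 20379 probes over the whole array. Semaphorins were mostly above the reference (12 of 16 genes), as were Eph receptors (7 of 11) and netrin receptors (3 of 3). Ephrins were mostly below it (2 of 7 above). Plexins and neuropilins were split (5 of 10 above), and 2 of 3 Robo receptors, 1 of 3 Slits and 0 of 1 netrin stood above it.

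The 6 genes that stood highest against the neonatal organs were *Plxnb3*, *Ephb1*, *Unc5a*, *Sema6b*, *Epha5* and *Efnb3*. *Plxnb3*, a plexin known from oligodendrocytes and a receptor for *Sema5a*, had a log2 ratio of 3.36 ± 0.147 (SD, n = 16), and the Eph receptor *Ephb1* had 3.03 ± 0.136 (SD, n = 16). The netrin receptor *Unc5a* followed at 2.92 ± 0.139, the transmembrane semaphorin *Sema6b* at 2.64 ± 0.135, *Epha5* at 2.59 ± 0.126 and the ephrin *Efnb3*, a midline cue for corticospinal axons, at 1.60 ± 0.139 (SD, n = 16 each). *Plxnb3* and *Ephb1*, and *Unc5a* and *Sema6b*, lay farther apart than the SD of either over the arrays, while *Unc5a* lay within that spread of *Ephb1*, and *Epha5* within that of *Sema6b*. *Efnb3* lay far below *Epha5*. The order depended on the scaling: with the scanner's processed signals *Epha5* stood highest at 4.16, before *Plxnb3* at 3.96 and *Ephb1* at 3.79, and *Epha10*, at 3.67 against 0.40 here, took the place of *Efnb3* among the 6.

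The 6 lowest were *Efnb1*, *Efnb2*, *Epha1*, *Sema3g*, *Epha2* and *Robo4*, genes known largely from epithelia and vessels. *Efnb1* had a log2 ratio of -2.76 ± 0.184 and *Efnb2*, a ligand of EphB receptors and of *Epha4*, had -2.27 ± 0.154 (SD, n = 16 each). *Epha1* had -2.23 ± 0.161, the secreted semaphorin *Sema3g* -2.12 ± 0.149, *Epha2* -2.02 ± 0.113 and the endothelial *Robo4* -1.95 ± 0.153 (SD, n = 16 each). From *Efnb2* to *Robo4* each gene lay within the spread of its neighbor in this order. With the processed signals *Ephb4* (-3.71) and *Epha1* (-3.62) lay below *Efnb1* (-3.18), and *Ephb4* and *Efna1* (-3.02) took the places of *Sema3g* (-2.72) and *Robo4* (-2.19). Without the reset of bright backgrounds the same 6 genes stood at each end, in the same order.

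**Figure D1:**
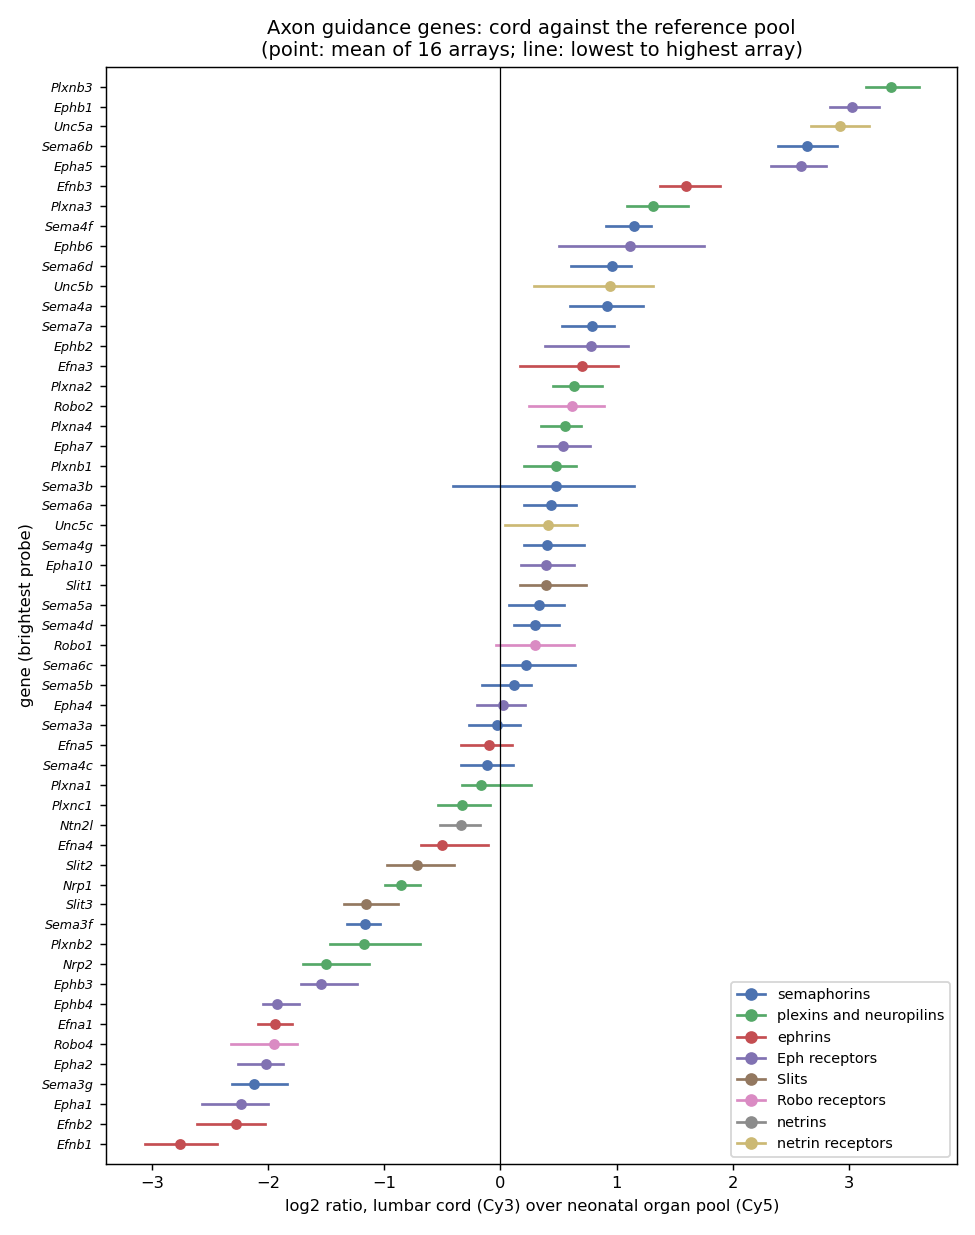
Log2 ratio of cord to neonatal organ reference (x axis) for the 54 member genes detected on at least 12 arrays (y axis). Points are the mean of 16 arrays, lines reach from the lowest to the highest array, and colors mark the families. In this scaling *Plxnb3* stands highest at 3.36 and *Efnb1* lowest at -2.76, while with processed signals *Epha5* and *Ephb4* do.

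At 40 days few guidance genes differed between SOD1G93A and wild-type cord. Of 76 member probes tested, 5 passed an unadjusted two-sided p of 0.05 in limma, the threshold of the study's methods, 2 higher and 3 lower in SOD1G93A. That is 6.58% of the member probes, beside 4.47% of the 21336 probes tested over the array. No member or other probe passed after Benjamini-Hochberg adjustment over all tested probes, where every called member had an adjusted p of 0.998. The groups' arrays did not overlap for 2 member probes, against 2.86% of all probes. The median log2 change of the member probes was 0.0056, and that of all tested probes 0.0029.

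*Plxna1*, a co-receptor that carries the signal of class 3 semaphorins bound to neuropilins, fell with probe A_52_P480141. Its log2 ratios on the 4 wild-type arrays were -0.14, 0.09, -0.07 and 0.26, and on the 4 SOD1G93A arrays -0.17, -0.31, -0.28 and -0.21. All SOD1G93A arrays lay below all wild-type arrays, although the lowest wild-type array was close to them. This gave a log2 change of -0.28 (SE 0.0852, p = 0.00862, limma; exact permutation p = 0.0286, the smallest that 4 arrays against 4 can give). The change held p under 0.05 in 14 of 14 other processing settings, where it ran from -0.37 to -0.17, and with each of the 8 arrays left out, from -0.34 to -0.20. The other *Plxna1* probe, A_51_P501922, did not show it, with a log2 change of 0.059 (limma p = 0.286, exact p = 0.143).

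*Sema4f*, a transmembrane semaphorin found at synapses and in oligodendrocyte precursors, rose. The 4 wild-type arrays read log2 ratios of 1.05, 1.06, 0.91 and 0.96 and the 4 SOD1G93A arrays 1.14, 1.28, 1.20 and 1.09. Again the groups did not overlap, with the highest wild-type array just under the lowest SOD1G93A array. SOD1G93A exceeded wild-type by 0.18 on the log2 scale (SE 0.0614, p = 0.0138, limma; exact permutation p = 0.0286). It passed the threshold with each of the 8 arrays left out and in 10 of 14 other settings. In the other 4 it did not pass: without the reset of bright backgrounds (0.14), without loess (0.12), with Cy3 alone (0.12) and with the log2 values of the series matrix (0.10).

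The 3 other calls at 40 days concerned overlapping groups. *Epha4*, the ephrin receptor that stops axons at the midline, gave 0.01, -0.26, 0.03 and 0.08 in wild-type and 0.24, 0.07, 0.19 and 0.11 in SOD1G93A with probe A_51_P221762. The wild-type array at -0.26 stood apart from the others of its group, and without it the log2 change went from 0.19 (limma p = 0.0391, exact p = 0.0571) to 0.12 and was no longer called. The brighter *Epha4* probe, A_52_P288177, changed by 0.089 (limma p = 0.142, exact p = 0.114). *Slit3*, a secreted Robo ligand, gave -0.18 with probe A_51_P355765 (limma p = 0.0226, exact p = 0.0571) and 0.079 with its brighter probe (limma p = 0.334, exact p = 0.429). *Epha1* gave -0.16 (limma p = 0.0487, exact p = 0.143). *Epha1* kept its call only without SOD1G93A replicate 3, and lay at -0.11 without SOD1G93A replicate 2. *Slit3* lost its call without wild-type replicate 2 (-0.15) and without SOD1G93A replicates 1 (-0.14) or 4 (-0.17), and *Epha4* also without wild-type replicate 1 (0.20) and SOD1G93A replicates 1 (0.16), 3 (0.18) or 4 (0.20). None of the 3 called probes with a second tested probe of its gene was matched by a call of that probe.

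The other leading ligands and receptors did not pass the test at 40 days. Among ligands, the log2 changes were 0.088 for *Efnb3*, 0.0049 for *Efnb2*, -0.12 for *Slit2* and 0.10 for *Sema3a*, the best known repellent semaphorin. Among receptors they were 0.12 for *Unc5c*, a receptor of repulsion from netrin-1, -0.076 for *Plxnb1* (A_51_P281734), 0.082 for *Nrp1* and 0.012 for *Robo1*. The 95% intervals reached from -0.072 to 0.30 for *Unc5c* and from -0.34 to 0.10 for *Slit2*, so changes within these intervals were not excluded.

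The balance of rises and falls among the 5 calls depended on the scaling. Without loess all 5 calls were lower, and with the scanner's processed signals 5 of 7 were higher. The count itself was 3 without wild-type replicate 2, 8 without wild-type replicate 3 and 10 without wild-type replicate 4. Among astrocyte markers, 3 of 11 tested probes were called higher in SOD1G93A at the same age (*Gfap*, *Slc1a2* and *Slc1a3*) and none lower. That is 27.3%, beside 4.47% of all probes. The list means were 2.91 to 3.05 on the wild-type and 3.04 to 3.26 on the SOD1G93A arrays. The part of astrocytes in the changes of guidance genes was not tested.

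At 80 days *Efnb3* was the guidance gene with the clearest genotype difference. Of 75 member probes tested, 2 passed p of 0.05 in limma, both higher in SOD1G93A, and 0 passed after adjustment. That is 2.67% of the member probes, beside 6.86% of 21601 probes over the array. The arrays of the groups did not overlap for 1 member probe, against 4.34% of all probes. The median log2 change was -0.0036 for the member probes and -0.0012 for all tested probes.

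*Efnb3* encodes ephrin-B3, the membrane-bound ligand that marks the spinal midline and is also found in myelin. Wild-type log2 ratios were tightly grouped, at 1.52, 1.49, 1.47 and 1.52, and those of SOD1G93A were 1.65, 1.78, 1.89 and 1.74. All wild-type arrays lay below all SOD1G93A arrays. The log2 change was 0.27 (SE 0.0639, p = 0.00191, limma, adjusted p = 0.654; exact permutation p = 0.0286, the smallest possible). It passed p of 0.05 in 14 of 14 other settings, from 0.23 to 0.37, and with each of the 8 arrays left out, from 0.22 to 0.30. At 40 days the same probe gave 1.60, 1.37, 1.41 and 1.69 in wild-type and 1.56, 1.72, 1.58 and 1.57 in SOD1G93A, where the groups overlapped in part: 2 wild-type arrays lay below all SOD1G93A arrays and 1 SOD1G93A array above all wild-type arrays.

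*Plxnb1*, the receptor of the semaphorin *Sema4d*, was the other call, by its dimmer probe A_52_P308465. The log2 ratios were 0.84, 0.67, 0.91 and 0.68 in wild-type and 0.78, 1.08, 1.19 and 0.94 in SOD1G93A. The SOD1G93A array at 0.78 lay among the wild-type arrays. The groups differed by 0.22 on the log2 scale (SE 0.0964, p = 0.0432, limma; exact permutation p = 0.114), and the brighter probe A_51_P281734 gave 0.14 (limma p = 0.178, exact p = 0.229). The call was lost without wild-type replicate 2 (0.19), wild-type replicate 4 (0.19), SOD1G93A replicate 2 (0.19) or SOD1G93A replicate 3 (0.16).

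No other leading member passed at 80 days. *Plxna1* changed by 0.085 (95% interval -0.046 to 0.22, limma p = 0.178, exact p = 0.114), the opposite sign to its change at 40 days. The netrin receptor *Unc5c* changed by -0.047 with an interval from -0.32 to 0.22. Changes were -0.14 for *Slit2*, -0.12 for *Robo1*, 0.080 for *Sema3a*, -0.014 for *Nrp1*, -0.020 for *Epha4* and -0.11 for *Efnb2*. The count of 2 calls became 5 without wild-type replicate 3, and 1 without either wild-type replicate 4 or SOD1G93A replicate 3. With the processed signals 1 of 3 calls was higher.

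**Figure D2:**
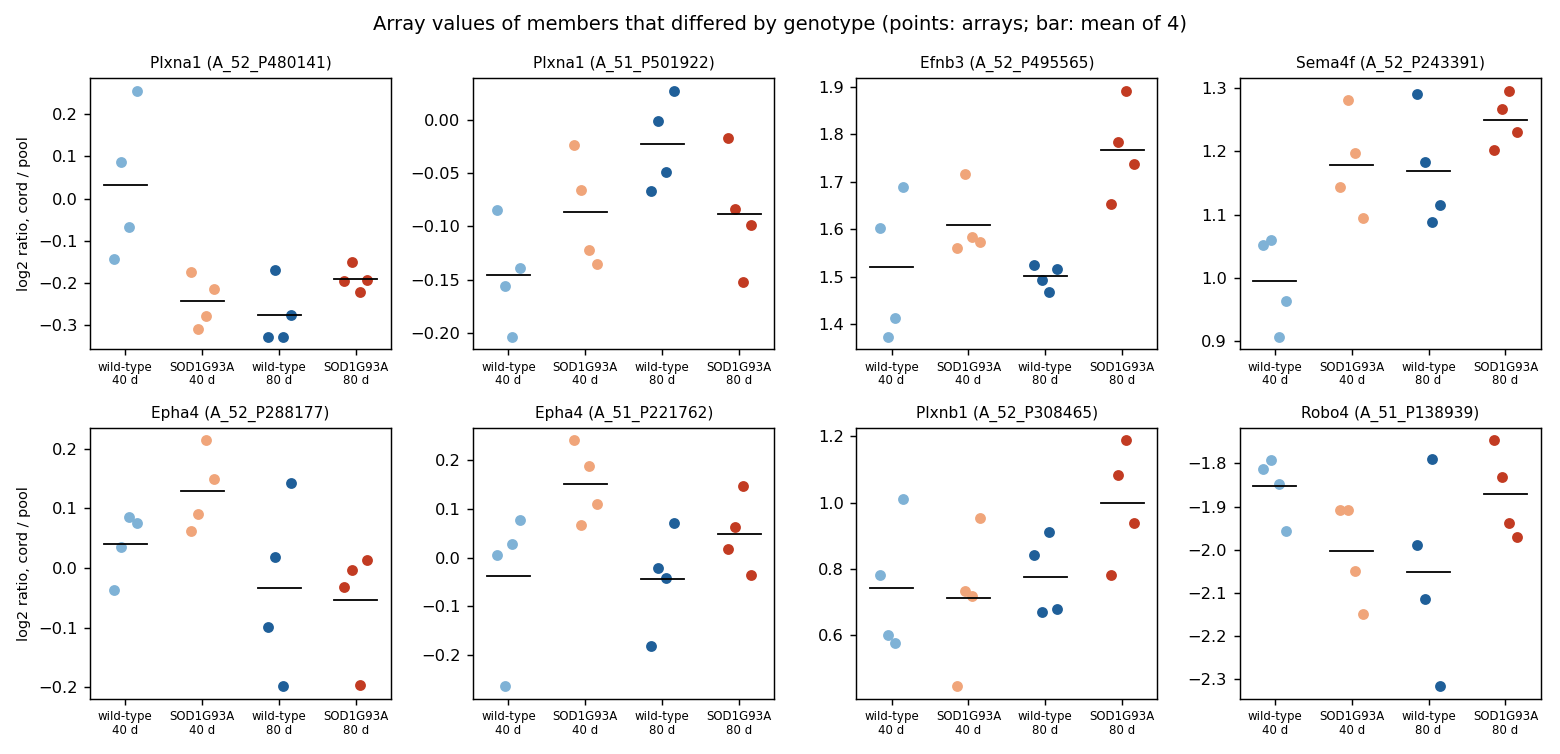
Log2 ratios of cord to reference (y axis) on the 4 arrays of each of the 4 groups (x axis) for selected member probes. They were called by genotype or for the interaction, or are the other probe of *Plxna1* and *Epha4*. Points are arrays and bars the group mean. The *Efnb3* arrays of SOD1G93A at 80 days lie between 1.65 and 1.89, above all wild-type arrays of that age.

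Whether the genotype change itself differed between the ages was tested with an interaction term over all 16 arrays. Of 77 member probes, 4 passed p of 0.05 in limma (5.19%), 3 with a change that was more positive at 80 days and 1 the opposite, beside 6.68% of 21951 probes over the array. None passed after adjustment. The median interaction was -0.012 for the member probes and 0.00024 for all tested probes. *Plxna1* had the largest, at 0.36 (SE 0.103, p = 0.00278, limma, adjusted p = 0.543), with an exact permutation p of 0.00204 over 4900 relabelings. The relabelings exchanged genotypes within each age. The exact p-values of the interaction therefore assume no genotype change at either age, and do not test for an equal change at both ages. In wild-type cord its values went from -0.14, 0.09, -0.07 and 0.26 at 40 days to -0.33, -0.17, -0.33 and -0.28 at 80 days. In SOD1G93A cord they were already low at 40 days and were -0.20, -0.15, -0.22 and -0.19 at 80 days. The interaction passed in 12 of 12 other settings and with each of the 16 arrays left out, where it ran from 0.29 to 0.42. The other *Plxna1* probe, A_51_P501922, gave -0.12, the opposite sign (limma p = 0.0923, exact p = 0.0237).

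The 3 other interaction calls were smaller or less stable. *Robo4* gave 0.33 (limma p = 0.0231, exact p = 0.0257) and lost its call without SOD1G93A replicate 4 at 40 days (0.28), wild-type replicate 4 at 80 days (0.24) or SOD1G93A replicate 1 at 80 days (0.29). *Sema4c*, a transmembrane semaphorin and *Plxnb2* ligand, gave 0.28 with probe A_51_P170651 (limma p = 0.0455, exact p = 0.0482) and kept its call with 6 of the 16 arrays left out. With each of the 16 left out in turn, called or not, it ran from 0.19 to 0.38. *Plxna2*, another plexin of class 3 semaphorin signaling, gave -0.26 with probe A_52_P431981 (limma p = 0.0268, exact p = 0.029) and kept its call with 10 of 16. Over all 16, called or not, it ran from -0.31 to -0.20. Its other probes gave -0.22 (limma p = 0.0568, exact p = 0.0522) and -0.18 (limma p = 0.137, exact p = 0.136), the same sign. *Efnb3* gave 0.18 with an interval from -0.036 to 0.39 (limma p = 0.0974, exact p = 0.209), so its change at 80 days was not shown to differ from that at 40 days. The remaining leading members lay between -0.16 (*Unc5c*) and 0.21 (*Plxnb1*, A_51_P281734), with -0.13 for *Robo1*, -0.12 for *Efnb2*, -0.11 for *Epha4*, -0.096 for *Nrp1*, -0.024 for *Sema3a* and -0.023 for *Slit2*. The split of 3 and 1 became 2 and 4 with processed signals and 6 and 0 without loess, and the count of 4 became 2 without wild-type replicate 4 or SOD1G93A replicate 3 of 80 days.

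**Figure D3:**
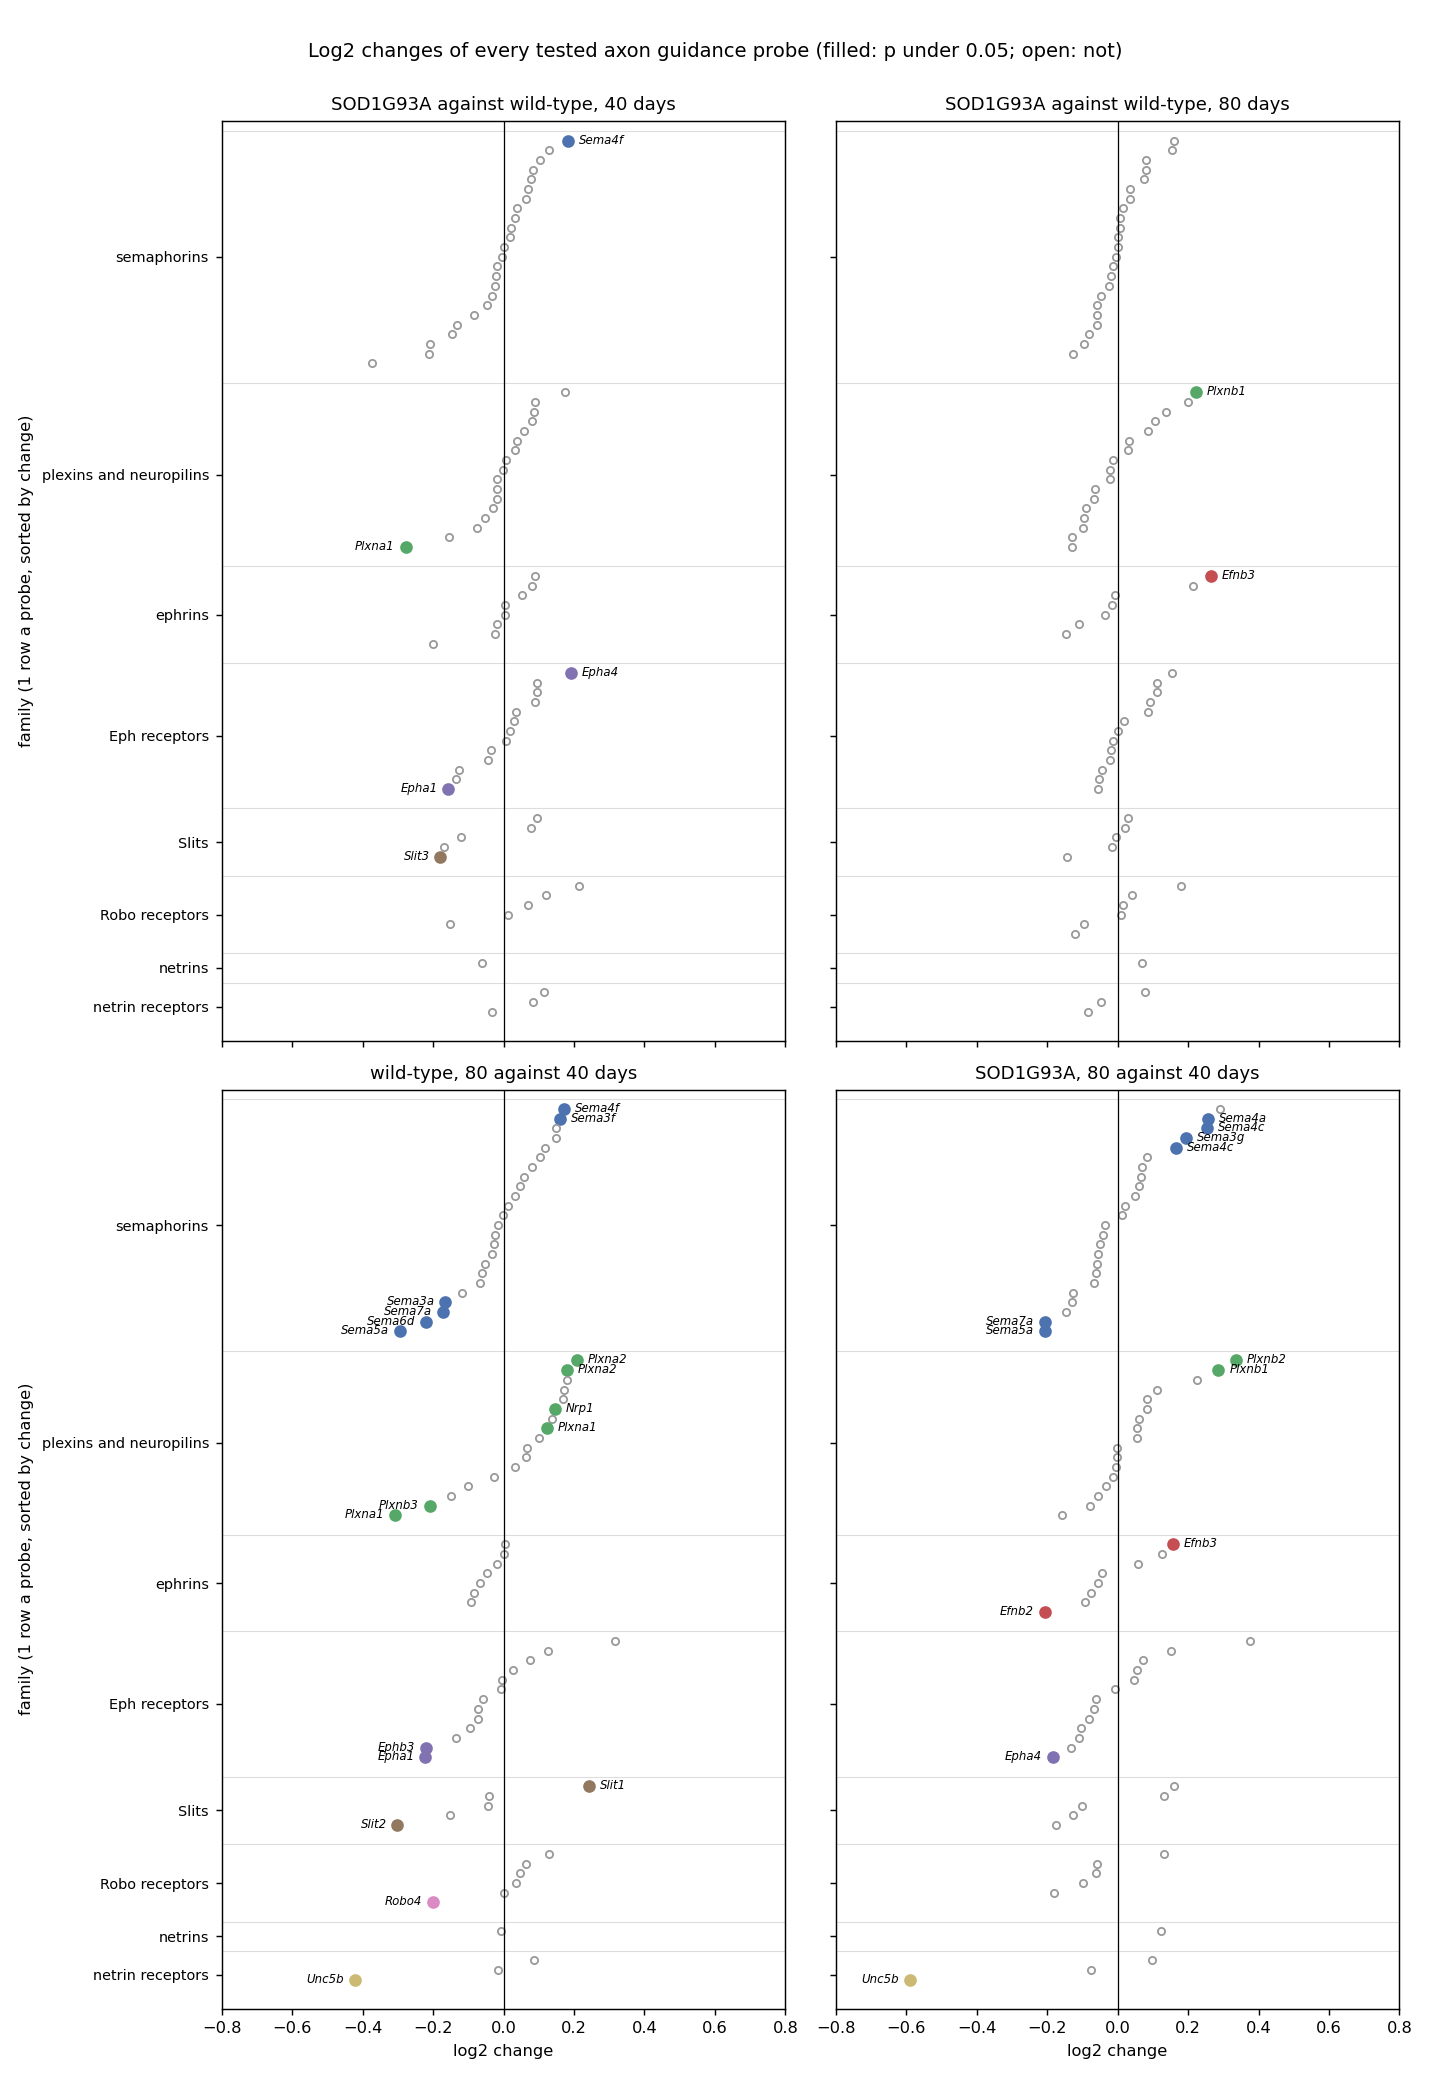
Log2 change of each tested member probe (x axis; 1 row per probe, grouped by family) in the comparisons of genotype at 40 and 80 days and of age in wild-type and SOD1G93A cord (4 panels). Filled, named points passed an unadjusted p of 0.05: the genotype panels hold 5 and 2 of these and the age panels 18 and 12.

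More guidance probes were called with age than with genotype, and so were more probes over the whole array. The comparisons with age use the same arrays as those with genotype and all 16 arrays share an estimate of the spread, so their results are not independent of those above. In wild-type cord 18 of 76 member probes (23.7%), for 16 genes, passed p of 0.05 between 80 and 40 days, 7 higher and 11 lower at 80 days, beside 15.3% of 21524 probes over the array. Of the 18, 2 passed adjustment over all tested probes (*Sema5a* and *Plxna1*), as 350 probes did in all. The arrays of the ages did not overlap for 6 member probes, against 7.82% of all probes. The median log2 change was -0.0061 for member probes and 0.015 for all.

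Among the ligands, *Sema5a* showed the clearest fall in wild-type cord. *Sema5a* encodes a transmembrane semaphorin that can attract or repel axons and that oligodendrocyte-lineage cells express. Its log2 ratios were 0.54, 0.55, 0.48 and 0.42 at 40 days and 0.21, 0.12, 0.21 and 0.28 at 80 days. All 4 arrays of 80 days lay below all 4 of 40 days. The log2 change was -0.29 (SE 0.0637, p = 0.000289, limma, adjusted p = 0.0301; exact permutation p = 0.0286), and it passed p of 0.05 in 12 of 12 other settings and with any array left out. The semaphorin *Sema6d* fell by 0.22 on the log2 scale with probe A_51_P500002 and the ages did not overlap (limma p = 0.00651, exact p = 0.0286), whereas its other probe gave 0.081 (limma p = 0.292, exact p = 0.371).

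Among the Slits, a *Slit2* probe was called lower and *Slit1* higher with age in wild-type cord, and no Slit was called in SOD1G93A cord. *Slit2* changed by -0.30 with probe A_51_P496562 (limma p = 0.00728, exact p = 0.114), and by -0.15 with its brightest probe (limma p = 0.154, exact p = 0.286). *Slit1* rose by 0.24 (limma p = 0.0118, exact p = 0.0571), from 0.36, 0.21, 0.17 and 0.26 to 0.74, 0.29, 0.38 and 0.56. The array at 0.74 stood above the others, and without it the change was 0.16 and no longer called.

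Among the receptors, *Unc5b*, which takes part in repulsion by netrins and in vessel guidance, had the largest change in wild-type cord. Its log2 ratios were 1.19, 1.09, 1.24 and 1.11 at 40 days and 0.29, 1.01, 0.53 and 1.10 at 80 days. At 80 days 2 arrays were far lower than all of 40 days, and the other 2 were close to them. On average the change was -0.42 on the log2 scale (SE 0.153, p = 0.0137, limma, adjusted p = 0.195; exact permutation p = 0.0571), and -0.27 without wild-type replicate 1 of 80 days, where it was no longer called.

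*Plxna1* fell with age in wild-type cord by 0.31 on the log2 scale with probe A_52_P480141, whose values are given above (SE 0.073, limma p = 0.000616, adjusted p = 0.0436, exact p = 0.0286). Its arrays did not overlap between the ages, with the highest array of 80 days at -0.17 and the lowest of 40 days at -0.14. The call held in 12 of 12 other settings and with any array left out, from -0.37 to -0.23. The other *Plxna1* probe, A_51_P501922, was called in the opposite direction, at 0.12 (limma p = 0.0234, exact p = 0.0286), and its arrays did not overlap either. The probes of *Plxna1* therefore disagreed, and a single direction for the gene cannot be given from them.

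*Plxna2* was higher at 80 days by 0.21 and 0.18 on its called probes A_52_P431981 and A_51_P229602 (limma p = 0.0154 and p = 0.0442, exact p = 0.0571 for each). *Plxnb3* fell by 0.21 (limma p = 0.0253, exact p = 0.143) and the B-class Eph receptor *Ephb3* by 0.22 (limma p = 0.0242, exact p = 0.0571). *Epha1* fell by 0.22 (limma p = 0.0439, exact p = 0.143) and *Robo4* by 0.20 (limma p = 0.048, exact p = 0.171). The 4 genes overlapped between the ages, and *Epha1* and *Robo4* kept their calls with 6 and 5 of the 16 arrays left out. Without wild-type replicate 4 of 80 days they lay at -0.14 and -0.11 and were not called. *Plxnb3* lost its call without wild-type replicates 1 (-0.17) or 4 (-0.16) of 40 days or 1 (-0.18) or 3 (-0.17) of 80 days, *Ephb3* without replicate 2 of 40 days (-0.16) or 2 (-0.20) or 4 (-0.19) of 80 days, and *Plxna2* (A_52_P431981) without replicate 1 of 80 days (0.16). The other called *Plxna2* probe, A_51_P229602, kept its call with 9 of the 16 arrays left out and in 8 of 12 other settings. Its lowest values, 0.14 without wild-type replicate 3 of 80 days and 0.062 without loess, were not called. The 6 other calls were *Sema7a* and a *Sema3a* probe (A_51_P163146), lower by -0.17 each, and *Sema4f* (0.17), *Sema3f* (0.16), a *Nrp1* probe (A_52_P174942, 0.14) and the second *Plxna1* probe. Each of the 6 lost its call in 3 to 5 other settings, and *Sema4f* alone among them kept it with any array left out. *Sema7a* lost it without wild-type replicates 1 (-0.14) or 3 (-0.16) of 40 days or 1 (-0.14) or 3 (-0.14) of 80 days, and *Sema3a* without replicate 3 of 40 days (-0.15) or 1 (-0.15) or 3 (-0.12) of 80 days. *Nrp1* lost it without wild-type replicates 1 (0.13) or 4 (0.11) of 40 days or 3 of 80 days (0.11), and *Plxna1* without 3 of 40 days (0.10) or 2 (0.12) or 4 (0.11) of 80 days. *Sema3f* kept it with 8 of the 16 arrays left out, and its lowest value, 0.11 without wild-type replicate 4 of 40 days, was not called. The brightest probes of *Sema3a* and *Nrp1* were not called, at -0.017 and 0.063. Neither were *Unc5c* (0.086), *Plxnb1* (-0.10), *Efnb3* (-0.019), *Robo1* (0.035), *Epha4* (-0.074) and *Efnb2* (-0.092).

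The number of calls with age in wild-type cord fell to 10 without wild-type replicate 1 of 40 days, and to 10 without replicate 1 of 80 days. Its balance depended on the scaling: 12 of 21 calls were higher with the processed signals, and 0 of 12 without loess.

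In SOD1G93A cord 12 of 76 member probes (15.8%), for 11 genes, passed p of 0.05 between 80 and 40 days, 7 higher and 5 lower, beside 17.2% of 21506 probes over the array. After adjustment 0 members passed, while 254 probes did in all. The arrays of the ages did not overlap for 7 member probes, against 12.6% of all probes. The median log2 change was -0.010 for member probes and 0.0058 for all tested probes.

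*Unc5b* had the largest change here too. Its log2 ratios were 1.20, 1.25, 1.20 and 1.31 at 40 days and 0.70, 0.55, 0.34 and 1.01 at 80 days. Every array of 80 days lay below every array of 40 days. The log2 change was -0.59 (SE 0.153, p = 0.00135, limma, adjusted p = 0.071; exact permutation p = 0.0286), and it passed p of 0.05 in 12 of 12 other settings, from -0.69 to -0.48, and with any array left out. Its change with age did not pass a test of a difference between the genotypes (interaction -0.17, limma p = 0.448, exact p = 0.478).

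Among the semaphorins, *Sema5a* fell by 0.21 (limma p = 0.00512, exact p = 0.0571), with 1 array of 80 days at 0.34 above the lowest of 40 days at 0.32. *Sema7a*, a membrane-anchored semaphorin that promotes axon growth through integrins, fell by 0.20 (limma p = 0.0132, exact p = 0.0571). It lost its call without SOD1G93A replicate 3 of 80 days (-0.14). *Sema4c* rose on both of its tested probes, by 0.25 and 0.17 (limma p = 0.015 and p = 0.0409, exact p = 0.0286 for each), and on each the ages did not overlap. The second probe, A_52_P659904, kept its call in 7 of 12 other settings and with 12 of the 16 arrays left out, and the first in 9 of 12 settings and with any array left out. Without SOD1G93A replicate 3 of 80 days the second lay at 0.12 and was not called. The values of the probe A_51_P170651 were -0.58, -0.76, -0.67 and -0.69 at 40 days and -0.53, -0.38, -0.42 and -0.36 at 80 days. *Sema4a* rose by 0.26 (limma p = 0.0252, exact p = 0.0571), which lost its call without SOD1G93A replicate 3 of 40 days (0.22) or replicates 1 (0.21) or 3 (0.22) of 80 days. *Sema3g* rose by 0.19 (limma p = 0.0466, exact p = 0.0286) and kept its call with 7 of the 16 arrays left out. Its lowest value, 0.14 without SOD1G93A replicate 2 of 80 days, was not called.

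Among the plexins, *Plxnb2*, a receptor of *Sema4c*, rose. Its log2 ratios were -1.32, -1.20, -1.30 and -1.31 at 40 days and -1.12, -1.10, -0.69 and -0.89 at 80 days. All arrays of 80 days lay above those of 40 days, 2 of them well above. The log2 change was 0.34 (SE 0.112, p = 0.0083, limma, adjusted p = 0.144; exact permutation p = 0.0286), and it passed in 12 of 12 other settings and with any array left out. *Plxnb1* rose by 0.29 with probe A_52_P308465 (limma p = 0.0258, exact p = 0.0857) and changed by 0.11 with A_51_P281734 (limma p = 0.238, exact p = 0.229). The call was lost without SOD1G93A replicate 1 of 40 days (0.20) or replicates 2 (0.26) or 3 (0.22) of 80 days.

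Among the ephrins and their receptors, *Efnb3* rose by 0.16 (limma p = 0.0409, exact p = 0.0571) and *Efnb2* fell by 0.21 (limma p = 0.0441, exact p = 0.0571). *Epha4* fell by 0.18 with its brighter probe, with no overlap between the ages (limma p = 0.0206, exact p = 0.0286). Leaving out SOD1G93A replicate 3 of 80 days ended each of these calls, with values of 0.12, -0.14 and -0.14, and brought the number of called members from 12 to 4. *Efnb2* also lost its call without each SOD1G93A array of 40 days, and without wild-type replicates 1 or 2 or SOD1G93A replicate 4 of 80 days. *Efnb3* also lost it without SOD1G93A replicates 1, 3 or 4 of 40 days or 2 of 80 days. *Epha4* also lost it without SOD1G93A replicate 3 of 40 days. The call of *Efnb2* held in 4 of 12 other settings and that of *Efnb3* in 6 of 12. Without a call were *Slit2* (-0.18), *Robo1* (-0.098), *Unc5c* (-0.076), *Plxna1* (0.054), *Sema3a* (-0.041) and *Nrp1* (-0.033). The split of 7 higher and 5 lower became 5 and 9 with the processed signals and 4 and 1 without loess.

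**Figure D4:**
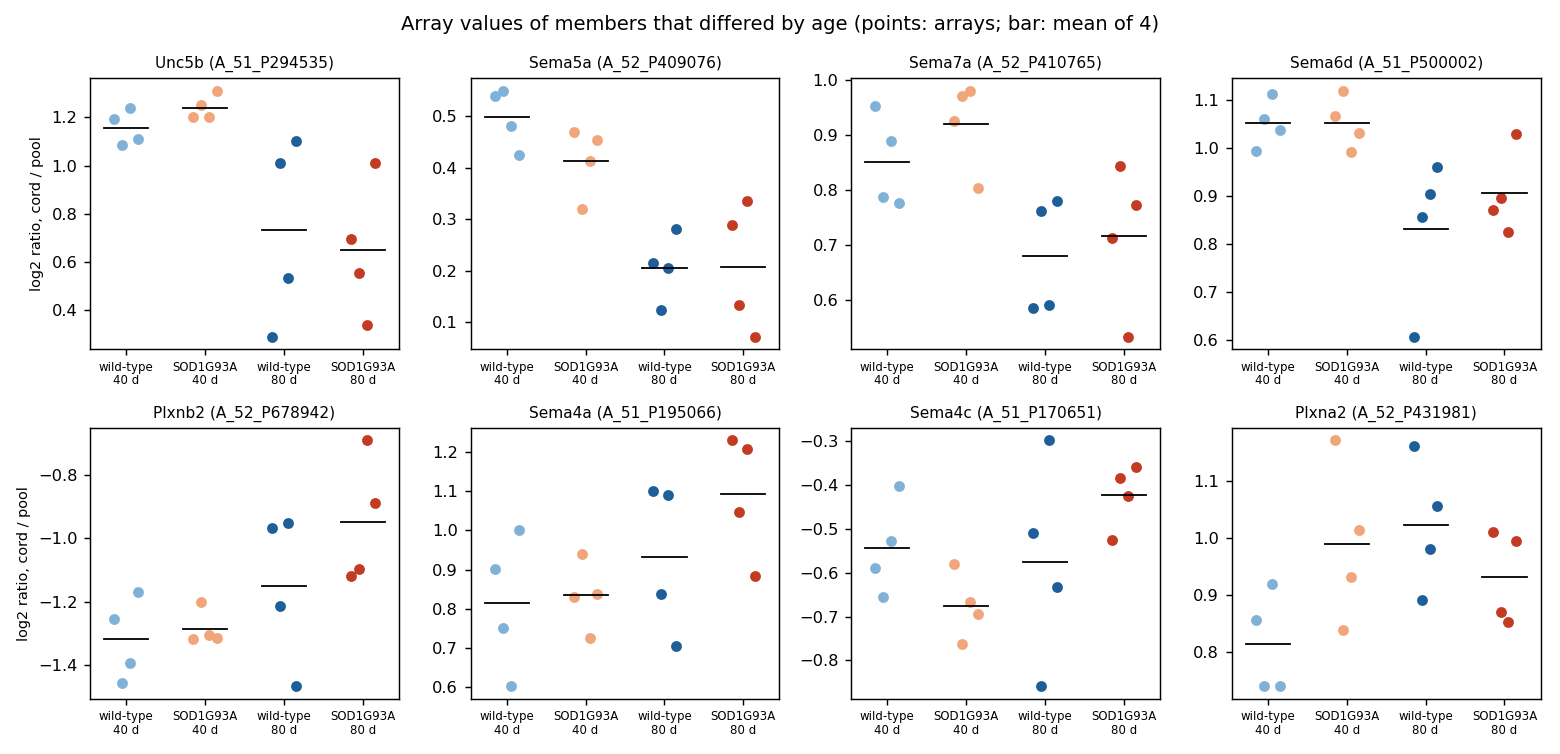
Log2 ratios of cord to reference (y axis) on the 4 arrays of each of the 4 groups (x axis) for the member probes leading the comparisons of age. Points are arrays and bars the group mean. The *Unc5b* arrays of SOD1G93A lie at 1.20 to 1.31 at 40 days and at 0.34 to 1.01 at 80 days.

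Some markers of several cell types were called with age in the same fits, oligodendrocytes among them. Their list of 6 genes, of which 5 were found and all 5 detected on every array, averaged 5.98 and 6.14 in wild-type and SOD1G93A cord at 40 days and 5.70 and 5.78 at 80 days. Of 11 tested probes 3 were lower at 80 days in wild-type cord (27.3%), and 5 were lower and 1 higher in SOD1G93A cord (54.5%). Over the array 15.3% of probes were called with age in wild-type and 17.2% in SOD1G93A cord. A few calls in lists this short do not show that a cell type changed. Markers of oligodendrocyte precursors had 3 of 5 probes lower with age in wild-type cord (*Cspg4* and *Pdgfra*) and 0 of 5 called in SOD1G93A cord (limma). Astrocyte markers had 4 of 11 probes called with age in each genotype, 3 higher and 1 lower in wild-type and 1 higher and 3 lower in SOD1G93A cord. Endothelial markers had 2 of 8 probes lower in wild-type cord (*Flt1* and *Tek*) and 0 of 8 called in SOD1G93A cord (limma). All 5 endothelial genes found were detected on every array, with a list mean from -1.83 at 40 days to -1.94 at 80 days in wild-type and from -1.91 to -1.98 in SOD1G93A cord. The part of these cells in the changes of *Sema5a*, *Plxnb3*, *Unc5b* or *Robo4* was not tested.

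Other genes of axon guidance signaling were counted in the same fits. Of the other cues, co-receptors and adhesion molecules, 0 of 43 tested probes were called between the genotypes at 40 days at unadjusted p of 0.05 in limma. At 80 days 7 of 42 were (16.7%, beside 6.86% of all probes), 6 higher and 1 lower in SOD1G93A, and 0 passed after adjustment. The higher ones were 3 probes of *Ncam1*, a neural adhesion molecule, the netrin and repulsive guidance molecule receptor *Neo1*, its ligand *Rgmb* and the proteoglycan *Sdc3*, and the lower one was the adhesion molecule *Chl1*. With age 7 of 42 were called in wild-type cord (16.7%, beside 15.3% of all probes; 2 higher, 5 lower) and 8 of 43 in SOD1G93A cord (18.6%, beside 17.2%; 2 higher, 6 lower). For the interaction 3 of 43 were (6.98%, beside 6.68%). The shares with age and for the interaction lay near those of the array. The median log2 changes of this list were 0.032 and 0.016 between the genotypes at 40 and 80 days, and -0.042 and -0.031 with age in wild-type and SOD1G93A cord.

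The cytoplasmic effectors, which pass receptor signals to the cytoskeleton, had 7 of 96 probes called between the genotypes at 40 days (7.29%, beside 4.47% of all probes), 6 higher and 1 lower. At 80 days 6 of 95 were called (6.32%, beside 6.86%), 4 higher and 2 lower, and for the interaction 13 of 97 (13.4%, beside 6.68%), 6 and 7. With age they had 11 of 95 called in wild-type cord (11.6%, beside 15.3%), 2 higher and 9 lower, and 22 of 96 in SOD1G93A cord (22.9%, beside 17.2%), 8 higher and 14 lower. The Rac-regulating chimaerin *Chn2*, which acts downstream of Eph receptors, fell on both of its probes at both comparisons of age: by 0.31 and 0.20 in wild-type cord and by 0.31 and 0.31 in SOD1G93A cord. The kinase *Fyn*, which several guidance receptors and myelinating oligodendrocytes use, fell by 0.28 in wild-type and 0.27 in SOD1G93A cord.

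Variation between arrays of a group was somewhat larger for the members than for the array as a whole. Among probes detected on all 16 arrays, the median SD within groups was 0.134 for 61 member probes and 0.113 for 17727 probes in all. *Sema3b*, a secreted semaphorin that was named because of its spread, had an SD of 0.446, above that of 99% of these probes. Its log2 ratios were 0.72, 1.15, 0.93 and -0.41 in wild-type and 0.22, 0.39, -0.20 and 0.48 in SOD1G93A at 40 days. At 80 days they were 1.03, 0.38, 0.23 and 0.65 in wild-type and 0.85, 0.69, 0.35 and 0.18 in SOD1G93A.

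The arrays with the lowest *Sema3b* were wild-type replicate 4 and SOD1G93A replicate 3 of 40 days. The same 2 arrays were lowest in markers of Schwann cells, at a mean log2 ratio of -0.16 and -0.14 where the other arrays lay between 0.42 and 2.33. They were also lowest in markers of meningeal fibroblasts, at -3.03 and -2.97 where the others lay between -2.45 and -1.03. At 40 days the Schwann cell list averaged 1.36 (SD 1.07) in wild-type and 0.62 (SD 0.61) in SOD1G93A cord. The meningeal list averaged -1.74 (SD 0.87) and -2.32 (SD 0.51). Of the tested probes of these lists, 0 of 6 and 0 of 8 were called between the genotypes at that age, beside 4.47% of all probes. Of the Schwann cell list 5 of 6 genes were found and 2 were detected on every array, and of the meningeal list 6 of 6 were found and 5 detected on every array. The part of nerve root or meningeal tissue in the spread of *Sema3b*, or in the genotype comparison at 40 days, was not tested. *Sema3b* was not called in any comparison.

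**Figure D5:**
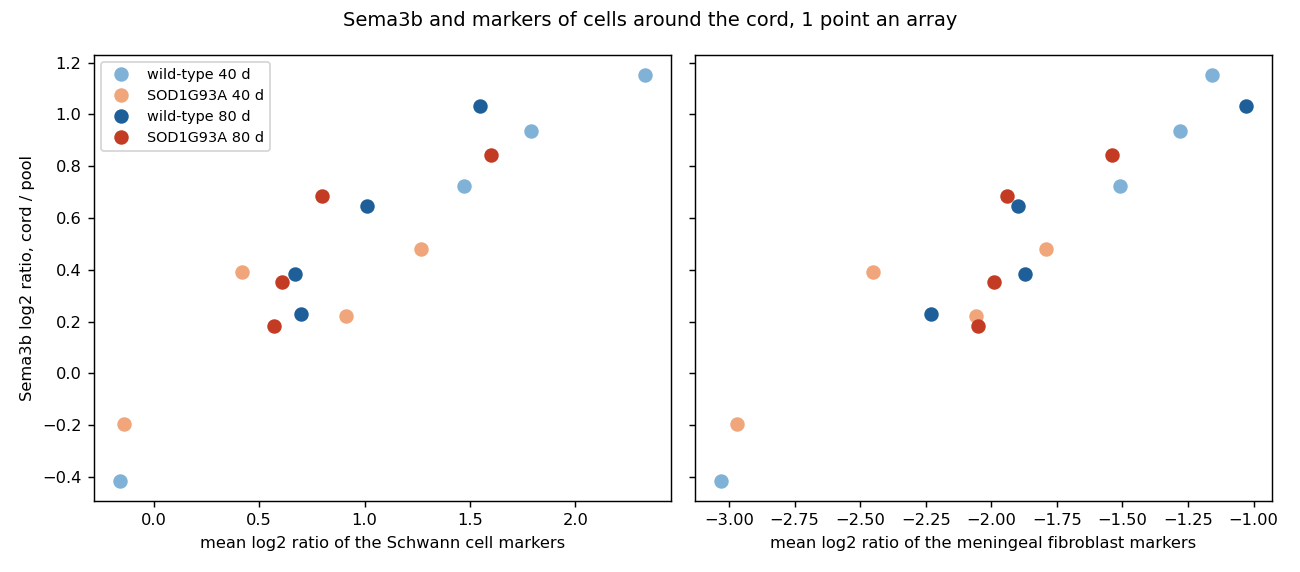
Log2 ratio of *Sema3b* (y axis) against the mean log2 ratio of the Schwann cell markers and of the meningeal fibroblast markers (x axes) on the 16 arrays, colored by group. The 2 arrays lowest in *Sema3b*, at -0.41 and -0.20, are the lowest on both marker lists.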

How the data were processed

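Lumbar cord RNA (Cy3) of 16 samples, 4 per genotype and age, was measured against a common neonatal organ reference (Cy5). The authors scanned the arrays and extracted them with Agilent Feature Extraction (version 9.5.3.1 per the submitters' processing notes). The scanner files hold intensity values of both channels, as deposited without normalization between arrays. A second table, the series matrix, gives log2 values normalized by the authors, separately within each age. They follow the Cy3 signal alone, so their direction is settled but their scaling is not stated, and they served only as an alternative within an age.

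Median spot signals were turned into log2 ratios of Cy3 over Cy5. The software was R 4.3.3 (limma 3.58.1, statmod 1.5.0, and version 1.17.8 of data.table). Local backgrounds over 20 units above their spot were set to the median background of the array, since such spots compressed all ratios of 3 arrays. Backgrounds were then corrected by normexp (offset 50) and ratios normalized by loess (span 0.3) within arrays. Aquantile between arrays acted on the mean log2 intensity of both channels and left the ratios unchanged. Control spots and spots marked as outliers were left out, and spots of a probe were averaged. To be tested, a probe needed Cy3 well above background on 3 or more of the 4 arrays in 1 compared group, and a value on 2 or more in each. Where a spot was left out, a fit used the remaining arrays.

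Genotypes were compared on the 8 arrays of an age, and ages and the interaction on all 16, with lmFit and eBayes over all tested probes. A call is an unadjusted two-sided p under 0.05, and Benjamini-Hochberg adjustment covered all tested probes. Exact permutation tests were two-sided, with a smallest p of 0.0286 for 4 arrays against 4 and 0.000408 for the interaction. For the interaction, genotypes were relabeled within each age, so its exact p assumes no genotype change at either age. The number of arrays limits the precision. The fits were tested on simulated data.

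Named in each comparison were the called member probes (at most the 12 largest, with the 6 smaller calls of age in wild-type cord named to complete their count), *Unc5c*, *Plxna1*, *Plxnb1*, *Efnb3*, *Dcc*, *Ntn1*, *Slit2*, *Robo1*, *Sema3a*, *Nrp1*, *Epha4* and *Efnb2*, and for the ratio to the reference 6 genes at each end. A gene is given by its brightest probe, and disagreeing probes beside it. The members, lists and alternatives were chosen with earlier results of these data known. Gene names are those of the files. Of the 122 member probes 81 were found by accession in a RefSeq table, 80 with the same symbol, and *Ntn2l* is now *Ntn3*. Plots used Python 3.11.15 and matplotlib 3.10.9. Alternatives covered the background correction, spot signal, loess, single channel, filters, array weights, replicate block, shared spread and each array left out.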

Additional observations from a re-analysis of the deposited data

Results flagged for a closer look

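Within groups of 4 arrays, 4 of 124 groups of the 31 named probes held an array far from the other 3, where chance alone gives about 5% of groups. *Efnb3* in SOD1G93A cord of 40 days had array 2 at 1.72 above its nearest neighbor at 1.58. *Sema3a* in SOD1G93A cord of 80 days had array 4 at 0.08 above -0.03. *Plxnb2* in SOD1G93A cord of 40 days had array 2 at -1.2 above -1.3, a narrow group as a whole. *Sema3g* in SOD1G93A cord of 80 days had array 2 at -1.9 above -2.11.

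For the interaction term in limma, 4 of 77 member probes (5.19%) passed an unadjusted p of 0.05, beside 6.68% of all tested probes. Their interactions were 0.363 for *Plxna1* (exact p = 0.00204), 0.332 for *Robo4* (exact p = 0.0257), 0.285 for *Sema4c* (A_51_P170651, exact p = 0.0482) and -0.264 for *Plxna2* (A_52_P431981, exact p = 0.029). These exact p-values assume no genotype change at either age. The other *Plxna1* probe, A_51_P501922, gave an interaction of -0.124, the opposite sign (exact p = 0.0237). None passed adjustment over all 21951 probes, with adjusted p from 0.543 to 0.745.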

How the results depend on the processing

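Of the called member probes, none turned direction under any alternative run or with any array left out. *Plxna1* (A_52_P480141) at 40 days and for the interaction, and *Efnb3* at 80 days, passed p of 0.05 in every processing alternative run. With age, *Sema5a*, *Plxna1* (A_52_P480141), *Sema6d* and *Unc5b* did so in wild-type cord, and *Unc5b*, *Plxnb2* and *Sema4a* in SOD1G93A cord. The others lost it in at least 1. Among them was the other *Plxna1* probe, A_51_P501922, called in the opposite direction with age in wild-type cord, which passed in 8 of 12. Over all alternatives to the processing, called probes kept their call for 43 of 70 values at 40 days, 23 of 28 at 80 days, 36 of 48 for the interaction, 171 of 214 with age in wild-type and 110 of 144 in SOD1G93A cord. The cause of these losses was not tested.

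Counts of called members moved by over 1.5 times as follows. At 40 days the 5 calls became 1 without the reset of bright backgrounds and 1 with Cy3 alone, 3 without background subtraction and 2 with the series matrix. They became 11 without the filter on dim probes (122 probes tested), 10 with the replicate block, 8 with array weights and 8 with the spread of all 16 arrays. At 80 days the 2 calls became 1 without loess, 6 without the filter, 6 with array weights and 1 with the spread of all 16 arrays. The 4 interaction calls became 2 without the reset, 2 with Cy3 alone and 10 without the filter. The 18 calls with age in wild-type cord became 11 with Cy3 alone, and the 12 in SOD1G93A cord became 5 without loess and 19 with array weights. With arrays left out in turn, the counts ran from 3 to 10 at 40 days, 1 to 5 at 80 days, 2 to 5 for the interaction, 10 to 18 with age in wild-type and 4 to 15 in SOD1G93A cord. Without the 3 arrays that held bright backgrounds, an alternative chosen after seeing the data, the counts were 7, 2, 6, 17 and 11. No scaling moved the median of all tested probes by over 0.1. The series matrix was not run for the interaction or the ages, because its ages were normalized separately.

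Probes that were not called could change sign. At 40 days *Efnb2* gave -0.050 with mean signals, -0.052 with processed signals, -0.052 without loess, -0.019 with the series matrix and -0.0044 with array weights. *Robo1* gave -0.069 and *Sema3a* -0.032 without loess, *Robo1* -0.027 with array weights, and *Plxnb1* 0.016 with Cy3 alone and 0.023 with the series matrix. At 80 days *Nrp1* gave 0.012 without the reset, 0.0065 with mean signals, 0.010 with processed signals, 0.0083 without loess, 0.037 with Cy3 alone, 0.031 with the series matrix and 0.011 with array weights. *Unc5c* gave 0.011 with mean signals and 0.0030 without loess, and *Epha4* 0.029 without loess, 0.018 with Cy3 alone and 0.022 with the series matrix. For the interaction without loess, *Slit2* gave 0.068, *Robo1* 0.014, *Sema3a* 0.13, *Nrp1* 0.0045 and *Epha4* 0.0010, and *Slit2* gave 0.11 with Cy3 alone. With age in wild-type cord *Efnb3* gave 0.0083, *Sema3a* 0.00062 and *Nrp1* -0.013 without the reset. *Sema3a* gave 0.0033 without background subtraction, 0.050 with Cy3 alone, 0.051 with array weights and 0.043 without the arrays of bright backgrounds. *Efnb3* gave 0.020 with Cy3 alone and *Robo1* -0.044 without loess. With age in SOD1G93A cord *Nrp1* gave 0.013 with processed signals and 0.011 without loess, and *Unc5c* 0.020 without loess.

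With single arrays left out, further changes without a call crossed 0. At 40 days *Robo1* ran from -0.019 to 0.069 and *Efnb2* from -0.070 to 0.062, and at 80 days *Unc5c* from -0.14 to 0.069, *Nrp1* from -0.044 to 0.0063 and *Epha4* from -0.075 to 0.039. For the interaction *Slit2* ran from -0.11 to 0.067 and *Sema3a* from -0.086 to 0.030. With age in wild-type cord *Efnb3* ran from -0.068 to 0.038, *Robo1* from -0.063 to 0.16 and *Sema3a* from -0.071 to 0.046, and in SOD1G93A cord *Unc5c* from -0.17 to 0.039, *Sema3a* from -0.071 to 0.0047 and *Nrp1* from -0.085 to 0.011.

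Replicate numbers are shared between groups and mark the slide, yet arrays of 1 number did not deviate together in every pair: the correlation was over 0.1 in 1 of 4 pairs at 40 days, 1 of 4 at 80 days, 0 of 4 with age in wild-type and 3 of 4 in SOD1G93A cord, where every array correlated best with its own number. With the replicate block the called members numbered 10 at 40 days, 3 at 80 days, 4 for the interaction, 18 with age in wild-type and 12 in SOD1G93A cord. Of the last 12, 9 were also called without the block, which ended the calls of *Efnb2*, *Efnb3* and *Sema4c* (A_52_P659904) there and no other call in the 5 comparisons.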
